A study of Mus musculus with 6 samples.

Results

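The lens is enclosed by a basement membrane, the capsule, and carries a single layer of epithelial cells under its front surface. These cells secrete much of the capsule, hold on to it through integrins, receive growth factors through surface receptors, and divide and move towards the equator, where they turn into fibre cells. Described here are 8 genes picked by symbol as lens epithelial genes of the surface and matrix, out of 55416 genes in the count table. They are the matrix and secreted proteins Npnt, Igfbp7, Clu and Sulf1, the receptors Pdgfra and Itga6, and Enah and Mab21l1. The last 2 encode proteins that act inside the cell, so the name fits the other 6 more closely.

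RNA was sequenced from whole lenses of mice with a germline knockout of Cd24a, which encodes a small glycolipid-anchored surface glycoprotein, and from wild-type mice. Each group had 3 samples, described as biological replicates, and each sample pooled 2 lenses. Sample labels put the mice at 8 weeks of age, whereas the series description says 7. Knockout samples carry the strain label C57BL/6 and wild-type samples C57BL/har, so effects of strain and of genotype cannot be told apart. A germline deletion removes the gene from every cell and not from the lens alone. The libraries held between 5384542 and 7302951 counts. The level of Cd24a, in CPM (counts scaled to a common library total after TMM), was 2910 ± 67.9 in wild-type and 10.04 ± 2.40 in knockout lenses (mean ± SD of 3), and every library followed its label. Replicate 3 of each group had 2191 or more Xist counts and the others had at most 4, a female pattern in 1 library per group.

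All 8 genes had enough counts to be tested, and 4 of them fell in the knockout while none rose. The 4 were Npnt, Igfbp7, Pdgfra and Sulf1, by 0.30 to 0.48 on the log2 scale, and Enah, Itga6, Clu and Mab21l1 did not pass the threshold. Over all 11474 genes tested, 861 passed an adjusted p of 0.05 (7.5%), with 4.48% lower and 3.02% higher (edgeR quasi-likelihood test, Benjamini-Hochberg adjustment). The groups did not overlap for 7 of the 8 genes, all lower in the knockout, against 24.4% of all tested genes that were separate and 12.4% that were separate and lower. The same number, 7 of 8, had an unadjusted p of at most 0.05, against 20.2% of all tested genes. The median log2 fold change of the 8 was -0.25, against 0.004 over all genes tested. The list was put together with results of these data known, so these shares describe the 8 genes and add no independent evidence. In whole lenses, fewer epithelial cells and less RNA per cell cannot be told apart.

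**Figure D1:**
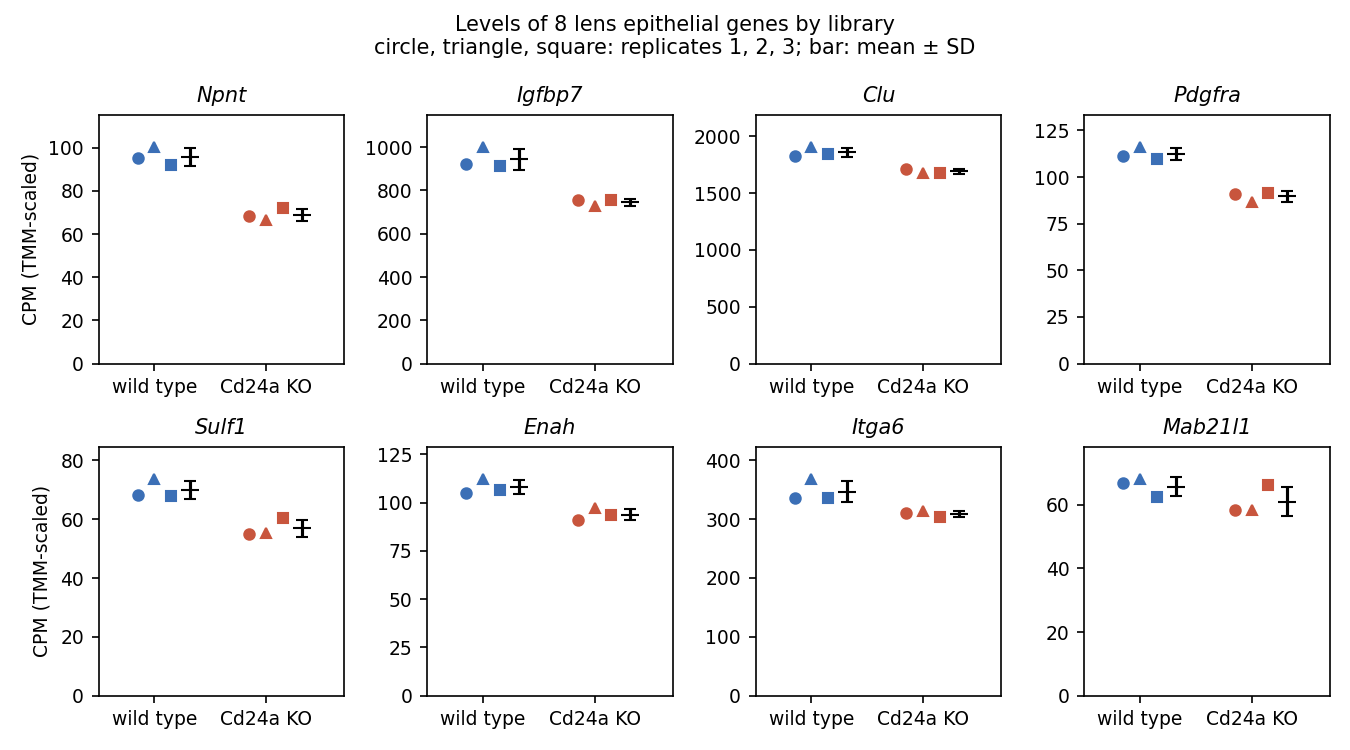
CPM of each gene in each library (linear axes from 0), with wild type in blue and knockout in red, marker shapes for replicates, and the mean ± SD beside them (n = 3). The groups are apart in every panel except that of Mab21l1, where knockout replicate 3 lies among the wild-type samples, and wild-type replicate 2 is the highest sample in all 8 panels.

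Npnt (ENSMUSG00000040998, chromosome 3) encodes nephronectin, a matrix protein that binds integrins through an RGD sequence. The wild-type libraries had 95.3, 100.2 and 91.9 CPM, from 669, 635 and 568 counts. The knockout libraries had 68.4, 66.4 and 72.1 CPM, from 380, 424 and 392 counts. Every knockout sample was thus below every wild-type sample, and the gap between the groups was wider than the range within either. Npnt fell by 0.48 on the log2 scale (SE 0.07, n = 3 a group, edgeR adjusted p = 7.86e-05), a change of -28.1% with a 95% interval from -34.8% to -20.6%. This was the largest decrease among the 8 genes.

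Igfbp7 (ENSMUSG00000036256, chromosome 5) encodes a secreted protein related to the insulin-like growth factor binding proteins, with a weaker affinity for these factors than the classical members have. Its levels were 922, 999.8 and 912 CPM in wild-type and 754, 728 and 756 in knockout lenses. The knockout samples lay close together, with an SD of 16.0 CPM against 48.2 CPM for wild type, and below all wild-type samples. Igfbp7 fell by 0.34 on the log2 scale (SE 0.05, edgeR adjusted p = 2.93e-04), or -21.0% (95% interval -27.0% to -14.5%). Igfbp7 is also known from vascular endothelium. The summed level of 7 endothelial markers, Pecam1 and Cdh5 among them, was 1.58 to 3.28 CPM in wild type and 1.66 to 4.86 CPM in the knockout. Of these markers, Emcn had no count. Whether endothelial cells add to the Igfbp7 level was not tested.

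Pdgfra (ENSMUSG00000029231, chromosome 5) encodes the alpha receptor for platelet-derived growth factor, a tyrosine kinase that lens epithelial cells carry. Wild-type samples were at 111, 116 and 110.0 CPM and knockout samples at 91.2, 86.5 and 91.4 CPM. The groups did not overlap, and each varied by about as much as the other. Pdgfra fell by 0.33 on the log2 scale (SE 0.06, edgeR adjusted p = 0.00176), or -20.2% (95% interval -27.1% to -12.6%). Fibroblasts also carry this receptor. Of the 8 fibroblast and mesenchyme markers, Col1a1, Col3a1, Dcn and Lum had 12, 5, 7 and 2 counts over all 6 libraries, and Kera had none. The summed level of that list was 257.6 to 290.3 CPM in wild type and 302 to 312 CPM in the knockout, most of it from Ogn and Pdgfrb, with Col1a2 at 12.1 CPM in wild type. Whether fibroblasts add to the Pdgfra level was not tested.

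The 300-base windows around the transcription start are shown for these 3 genes, the ones with the smallest adjusted p, since they fell together. They cover the start and the bases upstream of it, 5′ to 3′ on the gene's strand, from RefSeq on GRCm38.p6, which is an older build than the GRCm39 named for the counts. Capitals mark the GC box letters GGGCGG on either strand, and adjoining matches run together. The windows are chr3:132950242-132950541 (minus strand) for Npnt, chr5:77407996-77408295 (minus) for Igfbp7 and chr5:75152001-75152300 (plus) for Pdgfra.
Npnt: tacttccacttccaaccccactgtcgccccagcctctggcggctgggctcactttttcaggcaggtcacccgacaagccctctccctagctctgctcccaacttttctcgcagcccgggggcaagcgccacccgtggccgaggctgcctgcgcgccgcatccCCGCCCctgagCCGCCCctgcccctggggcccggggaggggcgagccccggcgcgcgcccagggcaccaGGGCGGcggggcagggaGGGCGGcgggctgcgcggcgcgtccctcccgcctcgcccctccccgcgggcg
Igfbp7: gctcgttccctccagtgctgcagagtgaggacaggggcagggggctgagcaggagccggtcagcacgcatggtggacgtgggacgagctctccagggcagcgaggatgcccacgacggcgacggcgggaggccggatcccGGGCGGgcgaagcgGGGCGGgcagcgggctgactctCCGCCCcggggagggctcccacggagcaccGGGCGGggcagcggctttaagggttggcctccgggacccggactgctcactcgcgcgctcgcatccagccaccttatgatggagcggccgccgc
Pdgfra: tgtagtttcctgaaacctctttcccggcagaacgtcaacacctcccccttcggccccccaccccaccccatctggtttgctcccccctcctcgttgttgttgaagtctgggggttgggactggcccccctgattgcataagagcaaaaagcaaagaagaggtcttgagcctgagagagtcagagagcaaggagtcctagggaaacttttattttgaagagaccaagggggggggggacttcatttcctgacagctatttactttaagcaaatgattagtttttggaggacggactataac
The Npnt and Igfbp7 windows held 4 GC boxes each, and the Pdgfra window held none. Their GC contents were 76.7%, 73.3% and 51%. Over 32851 such windows, 35.7% held at least 1 GC box. None of the 3 windows held the TATA box letters TATAAA (13.6% of all windows), CCAAT (37.4%), the AP-1 letters TGANTCA (7.81%) or the TEAD letters GGAATG (14.7%), on either strand. A second start listed for Npnt, in a window with 68% GC, held none of the 5 motifs either. Of the 8 genes, 4 had an entry, the fourth being Enah with 6 GC boxes, and Sulf1, Clu, Itga6 and Mab21l1 had none.

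Sulf1 (ENSMUSG00000016918, chromosome 1) encodes an extracellular sulphatase that trims 6-O-sulphate groups from heparan sulphate and so alters how growth factors bind it. It was at 68.2, 73.6 and 67.9 CPM in wild-type and 54.9, 55.5 and 60.3 in knockout lenses. The groups were apart, with knockout replicate 3 nearest to wild type. Sulf1 fell by 0.30 on the log2 scale (SE 0.07, edgeR adjusted p = 0.0146), or -18.7% (95% interval -26.9% to -9.42%). Sulf1 no longer passed without wild-type replicate 2 (adjusted p = 0.064), without knockout replicate 1 (0.073), in DESeq2 (0.061) and with scaling by library size alone (0.12), and the adjusted p ranged from 0.0099 to 0.12 over the alternatives. The related enzyme Sulf2 had 46 counts over all libraries and was not tested.

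Clu (ENSMUSG00000022037, chromosome 14) encodes clusterin, an extracellular chaperone, and had more counts than any other of the 8 genes. Its levels were 1828, 1903 and 1841 CPM in wild-type and 1715, 1679.5 and 1676 in knockout lenses. The samples of the groups did not overlap, although the difference was small. The log2 fold change was -0.14 (SE 0.05, edgeR adjusted p = 0.12), or -8.999% (95% interval -15.6% to -1.93%). DESeq2 and limma-voom gave adjusted p = 0.031 and 0.021 for Clu, within a range of 0.021 to 0.76 over the alternatives.

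Itga6 (ENSMUSG00000027111, chromosome 2) encodes the alpha 6 integrin chain, which pairs with beta 1 or beta 4 to bind laminin in basement membranes. It was at 336, 367 and 336 CPM in wild-type and 309.9, 314 and 304 in knockout lenses. The groups were apart, and wild-type replicate 2 stood above the other wild-type samples. The log2 fold change was -0.16 (SE 0.06, edgeR adjusted p = 0.088), or -10.7% (95% interval -17.7% to -3.14%).

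Enah (ENSMUSG00000022995, chromosome 1) encodes Mena, an Ena/VASP protein that helps actin filaments to grow at the leading edge and at adhesion sites. Its levels were 105, 112 and 107 CPM in wild-type and 91.0, 97.0 and 93.4 in knockout lenses. No knockout sample reached the wild-type range. The log2 fold change was -0.20 (SE 0.06, edgeR adjusted p = 0.057), or -13.0% (95% interval -20.6% to -4.73%).

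Mab21l1 (ENSMUSG00000056947, chromosome 3) encodes a protein with a nucleotidyltransferase fold that mouse embryos need to form the lens. It was at 66.8, 68.0 and 62.4 CPM in wild-type and 58.5, 58.3 and 66.4 in knockout lenses. The groups overlapped through knockout replicate 3. The log2 fold change was -0.11 (SE 0.08, edgeR adjusted p = 0.48), with a 95% interval from -17.0% to 3.59%, and it was 0.000353 with library size alone. In the GENCODE M21 annotation the gene overlaps Nbea, which is on the opposite strand, over 981 bases of exon, so without a stated strand setting their reads may not be fully told apart. Nbea was at 128 ± 4.85 CPM in wild-type and 121 ± 0.99 in knockout lenses (log2 -0.08, edgeR adjusted p = 0.54). Exons of Pdgfra and Igfbp7 overlap those of genes on the opposite strand by up to 456 and 85 bases.

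**Figure D2:**
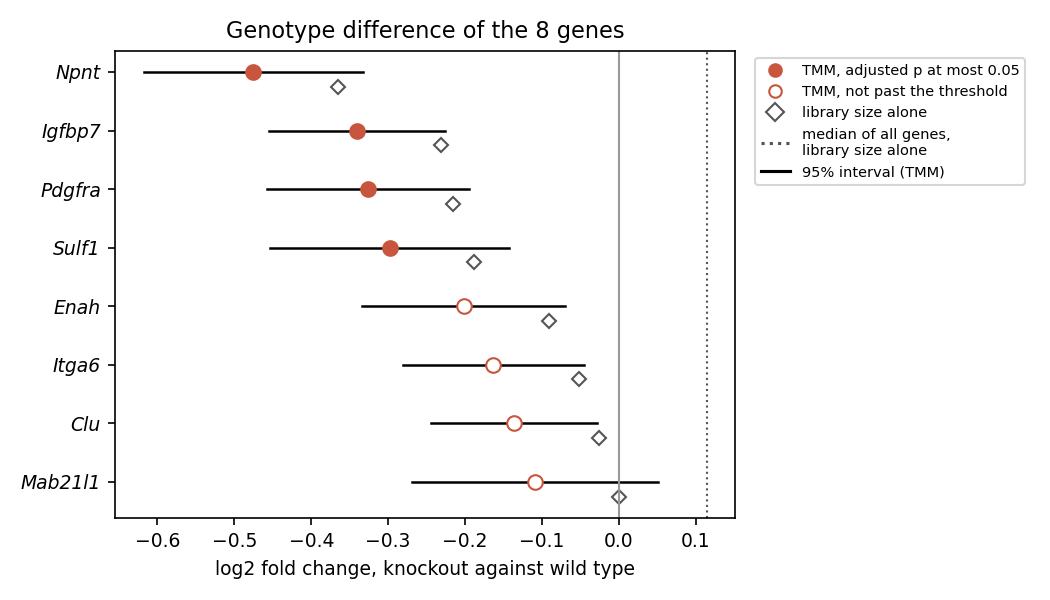
Log2 fold change of each gene, knockout against wild type, with 95% intervals under TMM scaling (circles, filled where the adjusted p is at most 0.05), and the value with library size alone (diamonds). The dotted line is the median of all tested genes with library size alone, 0.11; every diamond lies to the right of its circle by about that shift, and only that of Mab21l1 reaches 0.

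Levels between genes were compared per length, in FPKM, which divides the scaled count by the exon length. In wild type the order was Igfbp7 (781 ± 39.8 FPKM), Clu (540.4 ± 11.8), Itga6 (37.9 ± 2.00), Mab21l1 (26.4 ± 1.18), Npnt (19.1 ± 0.84), Pdgfra (11.2 ± 0.32), Sulf1 (6.19 ± 0.28) and Enah (5.03 ± 0.17; SD, n = 3). Igfbp7 and Clu ranked 39 and 48 among all tested genes, and Enah ranked 3812. No 2 neighbours in this order overlapped in wild type, and the order was the same in the knockout, where Sulf1 and Enah were at 5.04 ± 0.27 and 4.37 ± 0.14 FPKM. Lengths are the union of all exons, which was 21452 bp for Enah, so a gene transcribed mainly as shorter forms has its level understated. In the authors' deposited table, Npnt, Igfbp7, Pdgfra and Sulf1 had q-values of 2.37e-06, 9.50e-05, 0.00194 and 0.0235 with fold changes of -1.39, -1.27, -1.25 and -1.23. The other 4 of these genes had q-values from 0.12 to 0.65 in the authors' deposited table, and none passed its 2-fold limit.

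The 8 genes varied together across the samples to different degrees. Over the 28 pairs, Pearson's r of log2 CPM across the 6 libraries ran from 0.56 (Itga6 and Mab21l1) to 0.99 (Npnt and Pdgfra). After removing each group's mean, r ran from -0.01 (Pdgfra and Enah) to 0.91 (Igfbp7 and Pdgfra). These values share the library and its scaling factor, and wild-type replicate 2, the highest sample for all 8, had the smallest factor at 0.933. The factors were 0.933 to 0.992 in wild type and 1.01 to 1.07 in the knockout, and within a library the factor scales every gene by the same proportion.

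Ratios within a library hardly depend on that scaling, and 5 pairs of a gene and a partner were compared. The log2 ratio of Npnt to Itgb1, the integrin beta 1 chain of its receptors, was -0.87, -0.72 and -0.86 in wild type and -1.49, -1.52 and -1.35 in the knockout. The log2 ratio of Igfbp7 to Igf1r, the insulin-like growth factor 1 receptor, was 3.25, 3.34 and 3.19 in wild type and 2.76, 2.63 and 2.75 in the knockout. The log2 ratio of Pdgfra to Pdgfrb, its sister receptor, was 1.04, 0.91 and 0.89 in wild type and 0.48, 0.35 and 0.44 in the knockout. In each of these pairs all knockout samples were below all wild-type samples. The differences in log2 ratio were -0.64, -0.55 and -0.52, larger than those of Itga6 to Itgb1 (-0.33) and Enah to Vasp (-0.34), whose groups did not overlap either. An exact two-sided permutation test gave p = 0.10 for each pair, also p = 0.10 adjusted over the 5, which is the smallest value that 20 arrangements of 3 against 3 allow. The partners of the first 3 pairs had log2 fold changes of 0.17 (Itgb1), 0.21 (Igf1r) and 0.20 (Pdgfrb), so each of these ratios carries both changes. The same holds for Itga6 to Itgb1 and for Enah to Vasp, where Vasp had a log2 fold change of 0.13 (edgeR adjusted p = 0.70).

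**Figure D3:**
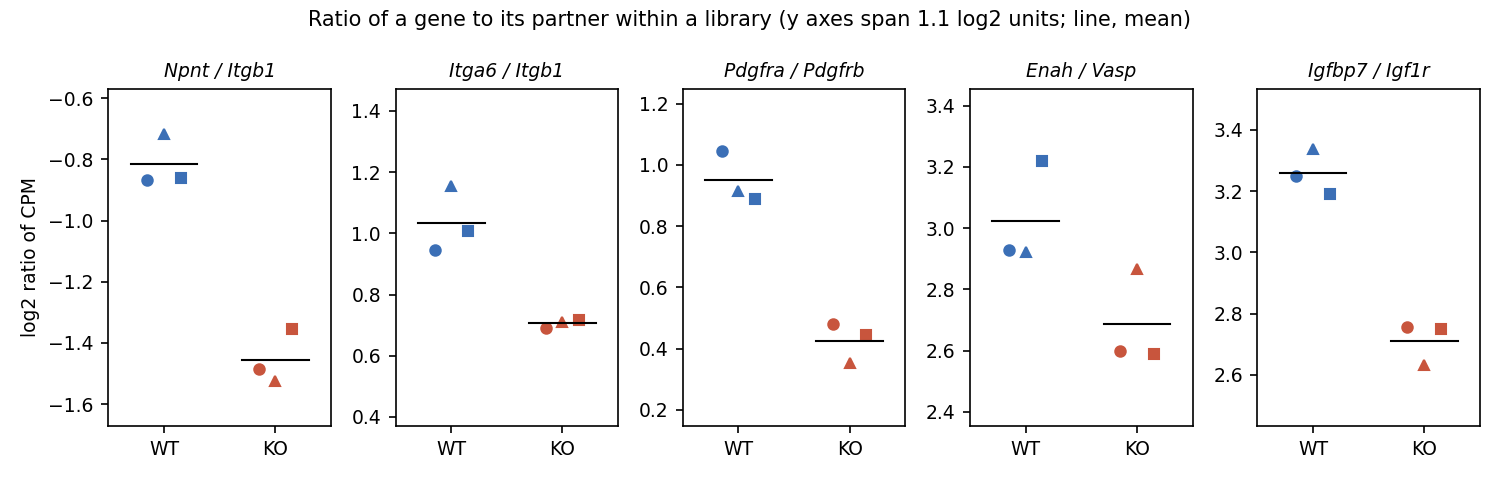
Log2 ratio of the CPM of a gene to that of its partner in each library (WT blue, KO red, replicates by marker shape, line at the mean; every axis spans the same range). Knockout samples lie below wild-type samples in all 5 panels, with differences from -0.64 for Npnt to Itgb1 to -0.33 for Itga6 to Itgb1.

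The ligands, receptors and relatives of the 8 genes mostly did not pass the test. In the axis of insulin-like growth factors 7 of 12 genes were tested, and 1 fell and 3 rose, with a median log2 fold change of 0.21. Igfbp5, a matrix-associated binding protein, was at 143 ± 10.5 CPM in wild-type and 74.3 ± 8.01 in knockout lenses, and fell by 0.94 on the log2 scale (SE 0.08, edgeR adjusted p = 7.01e-08), a larger decrease than that of Igfbp7 in log2 terms. Igf1r (98.2 ± 1.49 to 114 ± 3.15 CPM), the insulin receptor Insr (51.8 ± 3.35 to 65.2 ± 9.60 CPM) and the adaptor Irs1 (127 ± 3.78 to 147 ± 4.19 CPM) were called higher, with edgeR adjusted p = 0.039, 0.035 and 0.033. These 3 calls were fragile. All 3 were lost in DESeq2 (adjusted p = 0.12 for Igf1r, 0.082 for Insr and 0.071 for Irs1), those of Igf1r and Irs1 also without any 1 library, and that of Insr when knockout replicate 3 or any single wild-type library was left out. The adjusted p ranged up to 0.20, 0.22 and 0.21 over the alternatives. Igf2r did not pass (log2 0.06). The ligands Igf1 and Igf2 had 71 and 17 counts over all libraries and were not tested.

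Of 6 genes for platelet-derived growth factors and their receptors 2 were tested and neither was called by edgeR at the adjusted threshold, 1 having an unadjusted p of at most 0.05. The ligand Pdgfa was at 11.5 ± 2.40 CPM in wild-type and 9.77 ± 1.42 in knockout lenses, and Pdgfrb at 58.1 ± 3.97 and 66.7 ± 1.25 CPM (edgeR adjusted p = 0.12). With library size alone Pdgfrb was called higher (adjusted p = 0.015).

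Of 15 further integrin subunits 9 were tested and none was called by edgeR, with 2 having an unadjusted p up to 0.05. These 2 were Itga3 (log2 -0.31, edgeR adjusted p = 0.081) and Itgb1, and 6 of the 9 tested subunits had a log2 fold change below 0. Without wild-type replicate 1, 1 subunit was called lower. Itgb5 was at 232 ± 10.04 CPM in wild-type and 229 ± 12.3 in knockout lenses. Itgb1 was at 169 ± 4.73 and 189 ± 4.16 CPM (edgeR adjusted p = 0.086, and 0.0069 with library size alone). Itga8, whose alpha 8 chain forms the best known nephronectin receptor with beta 1, had 23 counts in all, and Itgb4 had 25, so neither was tested. Of 11 laminin chains, ligands of the alpha 6 integrins, 8 were tested and Lama3 alone fell, from 70.6 ± 7.36 to 53.6 ± 1.18 CPM (log2 -0.40, edgeR adjusted p = 0.0033). Lama2 had a log2 fold change of 0.01, and library size alone gave 2 higher calls among the laminin chains. None of the 4 genes of FRAS1 and FREM matrix proteins was called by edgeR (1 with an unadjusted p up to 0.05), with Frem2 at log2 -0.16.

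Of 21 genes for the synthesis and core proteins of heparan sulphate, the substrate of Sulf1, 19 were tested and 1 fell. Sdc4, the core protein syndecan 4, had 65.6 ± 3.25 CPM in wild-type and 51.3 ± 1.92 in knockout lenses, and fell by 0.36 on the log2 scale (SE 0.08, edgeR adjusted p = 0.0042), and its call was lost with library size alone (adjusted p = 0.063). Hspg2, the capsule proteoglycan perlecan, was at 884 ± 57.1 CPM in wild-type and 894 ± 2.63 in knockout lenses. Of 13 Ena/VASP proteins and partners of Enah 11 were tested and none was called by edgeR (1 with an unadjusted p up to 0.05), while library size alone gave 1 higher call. Vasp and Fat1, a giant cadherin, had log2 fold changes of 0.13 and -0.01. None of 3 clusterin receptors was called (0 with an unadjusted p up to 0.05), with Vldlr at log2 0.07, nor was Mab21l2, the close relative of Mab21l1 (log2 -0.24). DESeq2 and limma-voom called none of these PDGF, integrin, FRAS1, Ena/VASP, clusterin receptor and MAB21 family genes.

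**Figure D4:**
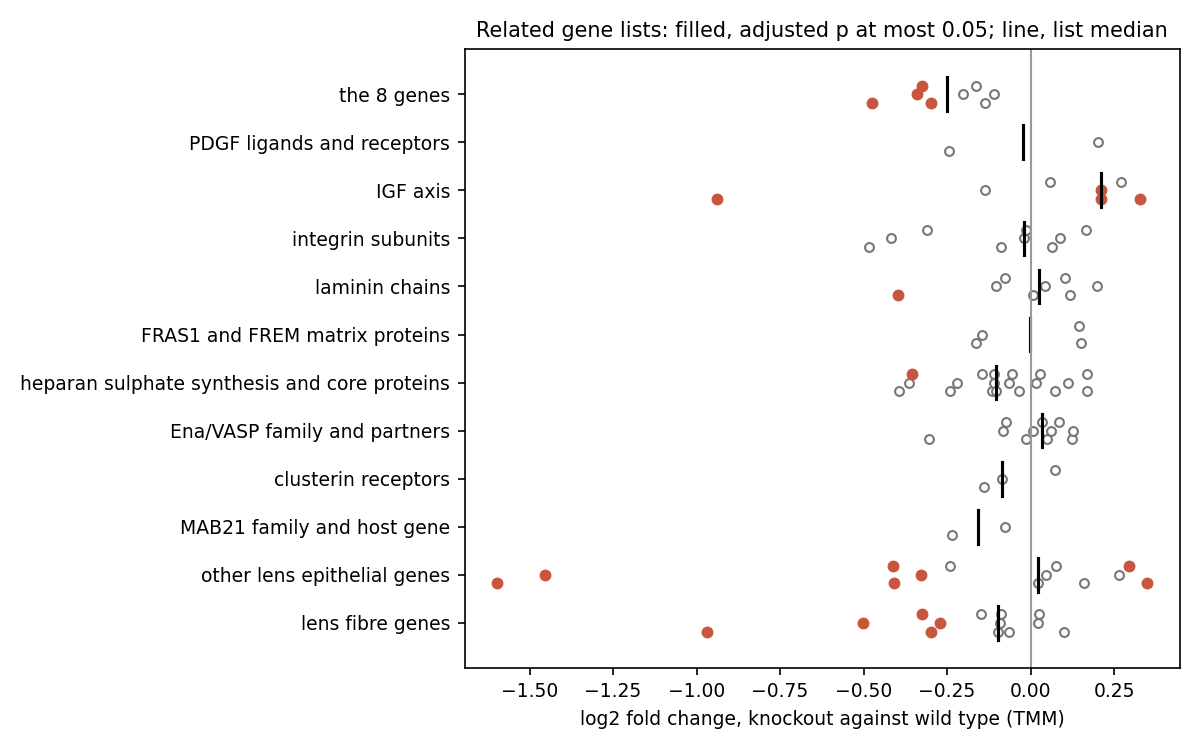
Log2 fold change (knockout against wild type, TMM scaling) of every tested gene of each list, filled where the edgeR adjusted p is at most 0.05, with the list median as a line. All 8 points of the top row are below 0 with a median of -0.25, while the IGF axis, at a median of 0.21, and the other lens epithelial genes, at 0.02, have called genes on both sides.

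Of 15 other genes listed for the lens epithelium 13 were tested, 5 fell and 2 rose, and their median log2 fold change was 0.02. Pax6, Foxe3 and Sox2 did not pass, with log2 fold changes of 0.02, 0.05 and 0.08 (edgeR adjusted p = 0.89, 0.88 and 0.74). Cdh1 (log2 -0.24, edgeR adjusted p = 0.11) and Meis1 (log2 0.27, edgeR adjusted p = 0.45) did not pass either. The 2 that rose, Cdkn1c and Jag1, are also known from cells that start to become fibres. Whether such cells add to their levels was not tested. Gja1, the gap junction protein connexin 43, fell from 137 ± 5.62 to 103 ± 3.24 CPM, and Slc12a2, a sodium-potassium-chloride cotransporter, from 90.8 ± 7.42 to 68.3 ± 2.19 CPM (edgeR adjusted p = 1.43e-04 and 9.05e-04). Aqp1, a water channel, and Krt18, a simple-epithelium keratin, fell from 30.2 ± 4.92 to 10.96 ± 2.17 CPM and from 11.7 ± 1.62 to 3.91 ± 1.00 CPM (edgeR adjusted p = 1.37e-06 and 4.88e-05). Tfap2a, a transcription factor of the lens epithelium, fell by 0.33, and its call was lost in DESeq2 (adjusted p = 0.066). Its call was also lost with library size alone (adjusted p = 0.12), without wild-type replicate 2 (0.082) and without knockout replicate 1 (0.089). Cdkn1c, a cell cycle inhibitor expressed as cells leave division, and Jag1, a Notch ligand, rose by 0.35 and 0.30 on the log2 scale. For Jag1 the call was lost without wild-type replicate 1 or 2 or knockout replicate 1 or 3 (adjusted p = 0.062 to 0.16). Vim, the intermediate filament vimentin, was at 2749 ± 72.8 CPM in wild-type and 3074 ± 172 in knockout lenses (edgeR adjusted p = 0.091, and 0.027 in DESeq2). It was also called higher in limma-voom (adjusted p = 0.017), and by edgeR without the low-count filter (0.0068), with library size alone (2.64e-04) and without knockout replicate 2 (0.027). The adjusted p of Vim ranged up to 0.41 over the alternatives.

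Some markers of fibre cells and of other tissues also passed the test, where 7.5% of all tested genes did. Of 13 fibre genes tested 5 fell and none rose, with Birc7, an inhibitor of apoptosis protein, at log2 -0.97 and Grifin, a galectin-related protein, at log2 -0.50. The other called fibre genes were Lctl, Dnase2b and Bfsp2, at log2 -0.33, -0.30 and -0.27. The Dnase2b call was lost without wild-type replicate 2 (edgeR adjusted p = 0.063) and without knockout replicate 1 (0.061) or 2 (0.061). With library size alone 2 fibre genes were called higher. Lim2, a membrane protein gene of fibre cells, is listed at 0 counts in all 6 libraries, so a 0 in this table need not mean that a gene is not expressed, and this holds for the markers at 0 as well. Of 12 photoreceptor markers all had a log2 fold change below 0, with a median of -0.70, but the groups overlapped for each. While 8 of them had an unadjusted edgeR p of at most 0.05 (20.2% of all tested genes did), 2 were called. Their summed level was 184 to 474 CPM in wild type and 173 to 308 CPM in the knockout. Of 12 markers of the retinal pigment epithelium 8 were tested and 4 fell, with summed levels of 56.4 to 84.1 CPM and 27.6 to 41.9 CPM. The 8 had a median log2 fold change of -0.98, and 6 of them an unadjusted edgeR p of at most 0.05. The glial list summed to 355 to 488 CPM and 173 to 632 CPM, with 1 of 7 called lower, and the ciliary and iris list to 96.4 to 113.7 CPM and 94.7 to 111 CPM, with 1 of 5 tested genes called higher. The corneal list summed to 86.4 to 97.0 CPM and 59.4 to 77.4 CPM, almost all from Aldh3a1, with Krt12 and Lypd2 at 0 counts. Aldh3a1, the 1 corneal marker tested, was called lower (log2 -0.46, edgeR adjusted p = 0.0017). Macrophage and blood markers summed to at most 8.81 CPM, with 1 tested and not called. The part of these tissues in the values of the 8 genes, several of which are also expressed outside the lens, was not tested. The same holds for the other listed lens epithelial genes, Aqp1 and Krt18 among them.

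The genes whose profiles over the 6 libraries were most like those of the called genes were found among 4271 tested genes with a mean of at least 20 CPM. For Npnt these were Cpt2, Cstf2 and Plaat3, each with r = 0.998 or more after rounding, and for Igfbp7 Plaat3, Jpt2 and Sptan1 (r = 0.995 or more). For Pdgfra they were Birc7, Plaat3 and Crygd (r = 0.998 or more after rounding) and for Sulf1 Ndufa7, Hspb1 and Vit (r = 0.989 or more after rounding). Such values are common here, since r was above 0.95 for 152 genes with Npnt, 146 with Igfbp7, 153 with Pdgfra and 86 with Sulf1. It was so for 108 genes with Clu, 44 with Enah, 27 with Itga6 and 20 with Mab21l1, whose closest genes were Gigyf2, Slc5a3, Rev1 and Ccng1. Each value carries the difference between the groups as well as the spread within them.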

How the data were processed

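RNA was measured in whole lenses by stranded total RNA sequencing with ribosomal RNA depletion and single-end reads, per the labels' protocols, on 4 flow cell lanes per library. Unnormalised read counts on Ensembl release 104 features were deposited, with a length and a GC fraction for each feature, per the file headers. HISAT2, HTSeq, edgeR and GRCm39 are named in the submitters' processing notes. Versions and the strand setting are not given in the sources used here. In the authors' deposited table, group means are in FPKM, fold changes are signed (a score with no values between -1 and 1), and edgeR p-values come with q-values after Storey.

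Counts were filtered with filterByExpr (11474 genes, at least 99.6% of each library's counts after rounding), scaled by TMM and tested two-sided by quasi-likelihood F tests in edgeR 4.0.16 under R 4.3.3 (limma 3.58.1 for voom). Benjamini-Hochberg adjustment ran over all tested genes, with calls at 0.05. An SE is the log2 change over the root of F. The edgeR p-values set the difference between the groups against the spread between these samples, moderated over all tested genes. SDs are over 3 libraries, and log2 CPM used a prior count of 2. FPKM were computed from TMM-scaled CPM and the deposited lengths. Alternatives were RLE, upper-quartile and library-size scaling, other filters, DESeq2 1.42.0, limma-voom, a replicate block and leaving out each library, and, added after seeing the data, leaving out replicate 3 of both groups. Biotypes and overlaps came from GENCODE M21. The 8 genes and all lists were chosen with earlier results of these data known. Genes named are the 8, their partners in ratios, called genes of each related list and its most abundant uncalled gene. Itga3 was named for its unadjusted p. In the list of other lens epithelial genes, all uncalled tested genes were named. The others named (Pdgfa, Mab21l2 and genes with few counts) and the markers were chosen for their role. The ratio of Sulf1 to Sulf2 was left out, since Sulf2 was not tested.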

Additional observations from a re-analysis of the deposited data

How the results depend on the processing

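Npnt, Igfbp7 and Pdgfra kept their direction and call under all 15 alternatives, with log2 fold changes of -0.54 to -0.37, -0.38 to -0.23 and -0.36 to -0.22. Lower calls among the 8 genes numbered 3 to 5 under all settings, and higher calls 0.

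Scaling by library size alone moved the median of all genes from 0.004 to 0.11 and gave 336 lower and 1008 higher calls, against 514 and 347 with TMM. In the related lists it gave 13 higher calls, against 5. It turned the sign of Mab21l1 (log2 0.000353, against a median of 0.11) and of the uncalled genes Itgb5 (0.091), Fat1 (0.095), Nbea (0.032) and Bfsp1 (0.011). DESeq2 called 219 genes higher, 3 of them in the related lists, where the replicate block gave 3 as well. The block gave 488 lower and 293 higher calls and changed no call among the 8 genes, while Igf1r (adjusted p = 0.077) and Irs1 (0.062) no longer passed, nor did they without the low-count filter (0.11 and 0.077). The replicate numbers are not said to pair samples, so they were not treated as pairs. Same-numbered samples did not deviate together (r = 0.05, -0.03 and 0.03), and not every sample correlated best with its own number.

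Leaving out 1 library gave 368 to 485 lower and 194 to 297 higher calls, and 11 to 14 lower and 1 to 4 higher calls in the related lists. The fewest higher calls came without knockout replicate 1 (194) and wild-type replicate 1 (196). Without replicate 3 of both groups there were 211 higher calls, 2 of them in the related lists, and the same 4 of the 8 genes were called, with Npnt at -0.54, Igfbp7 at -0.38, Pdgfra at -0.36 and Sulf1 at -0.36. Uncalled genes near 0 changed sign in some of these fits: Lama2 (-0.034 to 0.050), Hspg2 (-0.013 to 0.072), Itgb5 (-0.052 to 0.022) and Vasp (-0.022, without replicate 3 of both groups, to 0.21). The differences in log2 ratio (knockout minus wild type) ranged from -0.69 to -0.59 for Npnt and -0.37 to -0.27 for Itga6. They ranged from -0.55 to -0.48 for Pdgfra, -0.43 to -0.24 for Enah and -0.58 to -0.51 for Igfbp7. The cause of these shifts was not tested. Counts per library were 305 to 479 for Sulf1 and 325 to 469 for Mab21l1, against 9111 to 12833 for Clu.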
